A study of Mus musculus with 67 samples.

Results

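Mitochondrial ribosomal protein genes were followed here in translating RNA, whole tissue and sorted cells of mouse brain. They were the genes whose symbol starts with Mrps or Mrpl and a number. There were 78 of them among 24411 genes listed in the digest and driver experiments, and 77 among 24421 genes in the LPS experiment. In the LPS experiment the gene Mrpl58 was absent under that symbol, and its older symbol Ict1 was counted with another list. By symbol 29 were assigned to the small subunit and 49 to the large one, and the place of each protein in the ribosome was not checked. After a filter on low counts, 74 were tested in each experiment. Mrpl21, Mrpl23 and Mrps36 were too low for a test in all 3 experiments, and Mrps18b in the digest and driver experiments.

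The mitochondrial ribosome makes the few proteins encoded by mitochondrial DNA, all of them subunits of the respiratory chain complexes or of ATP synthase. Its RNA comes from mitochondrial DNA, while its proteins are encoded in the nucleus, translated on cytosolic ribosomes and imported. Messenger RNAs for these proteins are therefore among those that a pull-down of tagged cytosolic ribosomes can capture.

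The series held 67 libraries from 3 experiments on C57BL/6J mice. All mice carried the RiboTag allele, labelled RLP22HA/HA, which puts an HA tag on a protein of the cytosolic ribosome wherever a Cre recombinase has acted, and 1 copy of a Cre under Cx3cr1, a fractalkine receptor gene that microglia express. The series design treats each replicate as another mouse, and sorting and pull-down used the same animal. Pull-downs used 125 µg of anti-HA antibody on brain homogenate for 4 h, against 1 µg of an IgG1 control, so the control was not matched in amount.

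In the driver experiment, mice with tamoxifen-inducible Cre (CX3CR1CreER/WT) and tamoxifen gave 3 libraries each of input homogenate, IgG1 and pull-down. The same genotype without tamoxifen gave 2 of each. Mice with constitutive Cre (CX3CR1Cre/WT) and no tamoxifen gave 3 of each. Cre in the constitutive line acts in any cell that has ever used Cx3cr1. In the digest experiment, tamoxifen-treated CX3CR1CreER/WT mice gave 3 pull-down and 4 IgG1 libraries, and 4 libraries each of cells sorted with and without a 20 min enzyme digest. In the LPS experiment, mice of that genotype, also given tamoxifen, received PBS (3 libraries per preparation) or 2.5 mg/kg of LPS for 3 h (4 libraries per preparation). Its preparations were IgG1, pull-down from homogenate, sorted cells, and pull-down from sorted cells. Tamoxifen was 4 doses of 5 mg at 4 to 6 weeks of age. The age at sampling was not given in the sources used here.

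Libraries held 166851 to 3513317 counts, and the pull-downs without tamoxifen were shallow, at 186099 and 219521 counts. No library was a copy of another. All libraries carry microglia as their cell type label, including inputs. The summed level of 10 microglial markers was 53751 to 70367 CPM (counts scaled to a common library size, with TMM factors) in the tamoxifen pull-down of the driver experiment, 749 to 818 in its input, and 2219 to 5268 in the pull-down from constitutive Cre mice. In that last group 10 neuronal markers summed to 5483 to 7191 CPM, as high as in its input. Within it, replicate 1 stood apart, with 7 astrocyte markers at 3416 CPM against 1363 and 1418.

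Of the 78 members, 69 had a promoter in RefSeq on build GRCm38.p6, taken as 250 bases before to 50 after the gene start. Short sequence matches on either strand were counted for 7 motifs, and 3 stood out in share. The ETS core CCGGAAG was found in 25 of 69 (36.2%), against 11.9% of 17492 protein-coding promoters and 9.12% of all 27025. The core of nuclear respiratory factor NRF1, GCGCA and GCGC with any 1 base between them, was found in 13 (18.8%), against 6.60% of protein-coding and 4.78% of all promoters. The YY1 core AAGATGGC was found in 12 (17.4%), against 3.22% and 2.88%. The letters CCAAT were in 39.1% of members and 39.0% of protein-coding promoters, and TATAAA in 5.80% against 13.3%. Any of ETS, NRF1 or YY1, the 3 that stood out, was present in 60.9% of members and 19.5% of protein-coding promoters. That joint share follows from the single ones and is not a separate result. Member windows were also richer in bases G and C, with a median of 58.3% against 56.3% for protein-coding genes and 21 against 13 CpG, and the motif shares were not adjusted for that. A match is a string of letters and not a bound site.

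The 250 bases before the start are shown for 3 members that the results below turn on. In tamoxifen-treated inducible mice of the driver and digest experiments, Mrpl52 was the member with the largest excess of pull-down over IgG1. Mrpl17 and Mrpl12 were higher after LPS in every kind of microglial library. Capitals mark ETS matches (CCGGAAG or its complement CTTCCGG) and NRF1 matches. Mrpl52 lies at chr14:54426659-54426908 on the + strand, Mrpl17 at chr7:105811088-105811337 on the - strand and Mrpl12 at chr11:120484387-120484636 on the + strand, all in GRCm38.p6.
Mrpl52: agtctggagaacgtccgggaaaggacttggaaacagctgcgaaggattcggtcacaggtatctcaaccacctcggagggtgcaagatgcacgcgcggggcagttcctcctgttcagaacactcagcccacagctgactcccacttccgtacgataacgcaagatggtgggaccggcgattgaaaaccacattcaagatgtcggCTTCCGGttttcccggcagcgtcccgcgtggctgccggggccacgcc
Mrpl17: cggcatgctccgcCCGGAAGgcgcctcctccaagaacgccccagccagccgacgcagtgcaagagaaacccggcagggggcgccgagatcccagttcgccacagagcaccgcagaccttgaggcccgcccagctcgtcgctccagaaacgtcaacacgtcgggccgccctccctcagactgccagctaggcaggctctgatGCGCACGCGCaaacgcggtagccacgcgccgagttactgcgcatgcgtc
Mrpl12: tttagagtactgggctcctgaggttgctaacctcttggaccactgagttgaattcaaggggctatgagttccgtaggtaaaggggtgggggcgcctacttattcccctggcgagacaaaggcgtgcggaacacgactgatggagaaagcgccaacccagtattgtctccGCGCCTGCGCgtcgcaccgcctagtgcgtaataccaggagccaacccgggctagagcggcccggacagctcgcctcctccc

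Within the members' share of counts, 1 group differed from all others. In constitutive Cre mice the members held 1.18 to 1.21% of counts in the pull-down, 0.757 to 0.808% in input and 0.757 to 0.795% in IgG1, with no overlap. In tamoxifen-treated inducible mice of the same experiment they held 0.571 to 0.591% in the pull-down and 0.695 to 0.799% in input. Sorted cells of the digest experiment held 0.382 to 0.423%, below its pull-down at 0.580 to 0.611%. In the LPS experiment the sorted cells of PBS mice held 0.359 to 0.369% and the pull-down from homogenate 0.518 to 0.548%.

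**Figure D1:**
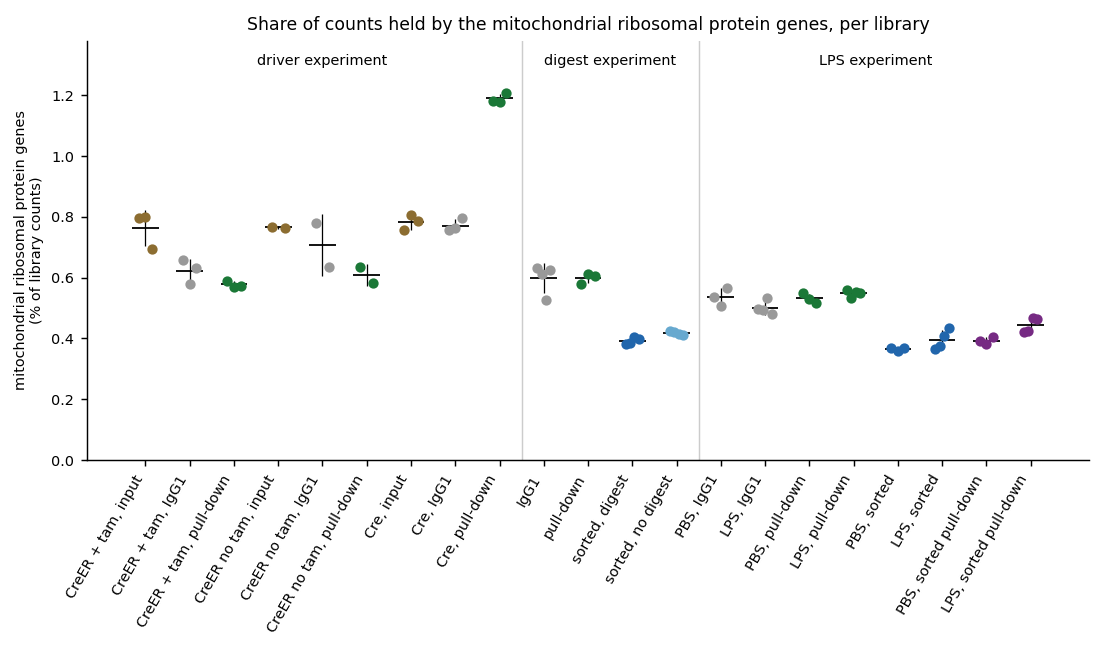
Share of each library's counts (percent, y axis) held by the members, by group (x axis), 1 point per library with the group mean and SD as lines. The pull-down from constitutive Cre mice lies at 1.18 to 1.21%, above every other library.

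In constitutive Cre mice the pull-down held more of most members than input. Of 74 members, 46 rose and 2 fell at an edgeR adjusted p under 0.05, where 18.1% of all 11868 genes rose and 16.8% fell. The median log2 difference was 0.82 for the members and -0.02 for all genes, and 64 of 74 members lay above 0. Against IgG1, 49 rose (20.5% of all genes) and 3 fell (18.3%), with medians of 0.71 and 0.07. When libraries were scaled to total counts in place of TMM, 32 rose and 7 fell against IgG1, and 36 and 5 against input. Without the pull-down replicate that stood apart, 48 members passed against input, as with it, and 49 against IgG1 in place of 52.

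The members that rose in that pull-down came from both subunits as assigned by symbol, 16 of 27 tested in the small and 30 of 47 in the large one. Mrpl33, a small protein of the large subunit, stood at 145, 131 and 168 CPM in the pull-down and 41.3, 42.2 and 54.7 CPM in input. Every pull-down library was above every input library, and the log2 difference was 1.68 ± 0.20 (SE, edgeR adjusted p = 1.19e-07). Mrpl14, a core protein of the large subunit, was at 545 CPM ± 22.7 (SD, n = 3) against 181 ± 23.2 in input. Mrpl11, which sits at the base of the ribosomal stalk, was at 225 CPM ± 29.7 against 76.3 ± 7.43. The stalk protein Mrpl12 itself rose by 0.86 ± 0.20 (adjusted p = 7.98e-04), from 196, 207 and 167 CPM to 338, 290 and 407 CPM. Mrps12, at the decoding centre of the small subunit, rose by 1.04 ± 0.18 (adjusted p = 3.86e-05). All of these groups were without overlap.

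Only Mrps30 and Mrps2 fell against input among the members of that comparison. Mrps30, a protein particular to the mitochondrial ribosome, was at 18.9, 23.1 and 22.3 CPM in the pull-down and 74.1, 78.4 and 86.5 CPM in input. The groups did not overlap, with a log2 difference of -1.90 ± 0.26 (edgeR adjusted p = 6.80e-07). It was also the only member lower than both input and IgG1 there, at -0.89 (adjusted p = 0.0140) against IgG1, a call lost without IgG1 replicate 1 (-0.71, adjusted p = 0.107). Mrps2, a small-subunit protein, fell by 1.08 against input (adjusted p = 0.00154). Higher than both controls were 35 members (47.3%), where 9.95% of all genes were, and 8.19% of all genes were lower than both.

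In inducible mice with tamoxifen the members moved in both directions. Against input 7 rose (28.7% of all genes) and 20 fell (35.5%), and the median was -0.02 against -0.28 for all genes. Scaling mattered here: with size factors of the DESeq2 kind 11 rose and 17 fell, and with total counts 2 rose and 37 fell, while the all-gene median went to -0.14 and -0.75. Relative to the all-gene median the members stood at 0.26 under each of the 3 scalings, at 0.13 with the compared groups alone in the fit, and at 0.16 to 0.33 when 1 library was left out. Against IgG1, 21 rose (30.8% of all genes) and 15 fell (35.3%), with a median of 0.08 against -0.19. With total counts 9 rose and 37 fell against IgG1, at an all-gene median of -0.72.

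Single members stood far from that middle. Mrpl52, a large-subunit protein, was at 629, 608 and 613 CPM in the pull-down, 254, 303 and 223 CPM in input and 147, 110 and 163 CPM in IgG1. All pull-down libraries lay above both controls, by 1.25 ± 0.20 and 2.14 ± 0.21 (edgeR adjusted p = 1.18e-06 and 2.07e-11). Mrpl24 was at 168, 147 and 134 CPM, where input held 61, 51.4 and 29.4 CPM. Again no libraries overlapped, and the pull-down was higher by 1.68 ± 0.22 on the log2 scale (edgeR adjusted p = 3.61e-08). Its gene model overlaps that of Rrnad1, and the strand used in counting was not given in the sources used here.

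At the other end stood Mrpl50, a large-subunit protein. It had 3.85, 2.97 and 3.26 CPM in the pull-down, from only 3, 2 and 3 reads. Input held 16.8, 15.7 and 14.3 CPM and IgG1 30.8, 32.3 and 36.1 CPM, with no overlap. The log2 difference was -2.16 ± 0.41 against input (edgeR adjusted p = 2.38e-05) and -3.25 ± 0.38 against IgG1 (2.47e-09). Mrps31 stood at 7.09 CPM ± 2.95 (SD, n = 3) against 32.4 ± 8.62 in input, and Mrps22 at 19.6 ± 1.90 against 48.5 ± 5.08. Mrps30 fell against input in this line as well, by 1.48 ± 0.27 (adjusted p = 1.48e-05). Mrpl12, Mrps12 and Mrps18a did not pass against input, at 0.15, 0.07 and 0.16.

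**Figure D2:**
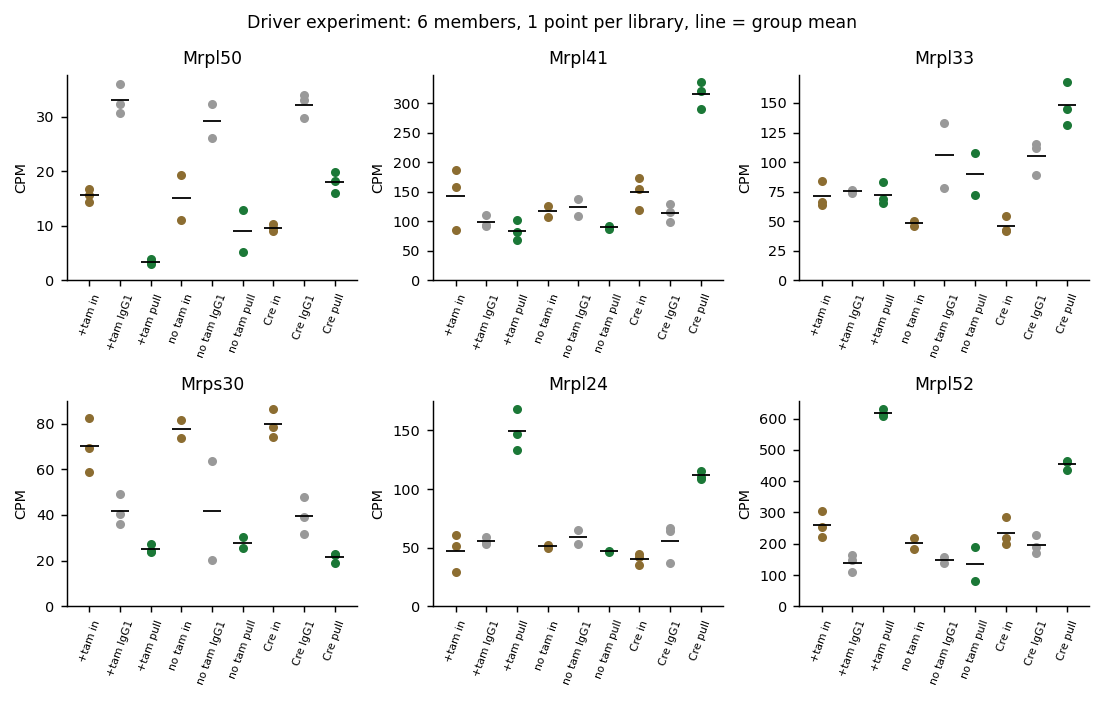
Scaled CPM (y axis) of 6 members in the 9 groups of the driver experiment (x axis; in, input; pull, pull-down; tam, tamoxifen), 1 point per library, line at the group mean. Mrpl41 reaches 290 to 336 CPM in the constitutive Cre pull-down alone, and Mrpl50 is lowest in the tamoxifen pull-down, at 2.97 to 3.85 CPM.

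The difference between drivers was tested as an interaction. Pull-down over input was higher in constitutive than in inducible mice for 44 of 74 members and lower for 0, where 23.9% of all genes were higher and 19.7% lower. The median was 0.87 for members and 0.22 for all genes. The count ran from 32 to 57 under the other scalings and tools, with none lower in any of them, and fell to 24 without replicate 2 of the tamoxifen input. Mrpl41, of the large subunit, was at 290, 321 and 336 CPM in the constitutive pull-down against 155, 174 and 120 in its input. In the inducible line it was at 103, 81.8 and 67.4 CPM against 158, 186 and 85.2 CPM. The interaction was 1.84 ± 0.31 (edgeR adjusted p = 7.67e-06). For Mrpl50 it was 3.06 ± 0.50 (adjusted p = 5.87e-06), on few reads in the inducible pull-down. Mrps12 and Mrps18a differed by 0.97 each (adjusted p = 0.00298 and 0.00380), and Mrpl12 by 0.71 (0.0381), a call lost in DESeq2 (0.53, adjusted p = 0.140) and without 9 single libraries.

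The cells behind the 2 pull-downs differed by their markers, and the part of that in the result was not tested. The neuronal markers summed to 1424 to 1852 CPM in the inducible pull-down, below its input at 5481 to 6297 CPM, whereas in constitutive mice the pull-down (5483 to 7191) reached the level of its input (5502 to 5777). None of the 10 neuronal markers was at 0 in these libraries. In bulk libraries of this kind, fewer cells of a type and less RNA per cell cannot be told apart.

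Other genes of mitochondrial translation were described by lists. Of 73 nuclear subunits of the respiratory chain, whose mitochondrially encoded partners the mitochondrial ribosome makes, 53 rose and 2 fell in constitutive Cre pull-down over input (median 0.98). In inducible mice 8 rose and 31 fell (-0.39), and the interaction was higher for 62 and lower for 0. Of 71 cytosolic ribosomal protein genes, 39 rose and 1 fell in constitutive mice (0.90) and 44 rose and 3 fell in inducible ones (1.00), with 3 higher and 15 lower in the interaction (-0.23). The 4 tested proteins of the mitochondrial ribosome under other names, such as Dap3, all rose in constitutive mice. Of 22 mitochondrial ribosome assembly factors 8 rose and 1 fell there, and of 18 mitochondrial aminoacyl-tRNA synthetases, which charge mitochondrial tRNAs, 1 rose and 3 fell.

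Mice with inducible Cre and no tamoxifen gave few calls. Against input 2 members rose (6.44% of all genes) and 7 fell (4.46%), with medians of -0.35 for members and -0.06 for all genes. Against IgG1, 1 rose (5.01%) and 5 fell (3.13%). With 2 libraries per group these counts rest on single libraries: without pull-down replicate 1 or 2, 4 or 5 passed against input and 2 or 1 against IgG1. Mrpl53 fell against both controls, from 176 CPM ± 6.32 (SD, n = 2) in input and 155 ± 8.04 in IgG1 to 64.9 ± 11.8, and the call against IgG1 was lost without pull-down replicate 2 (-1.06, edgeR adjusted p = 0.0864). Mrps33 had no read in either pull-down library, 31 and 12 reads in IgG1, and 10 and 11 in input. With a floor of 3 reads over the group it was at least 3.49-fold lower than IgG1, and the pooled input level was under that floor, so no fold is given against it. Microglial markers summed to 11317 to 12698 CPM in this pull-down without tamoxifen, against 896 to 924 in its input.

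**Figure D3:**
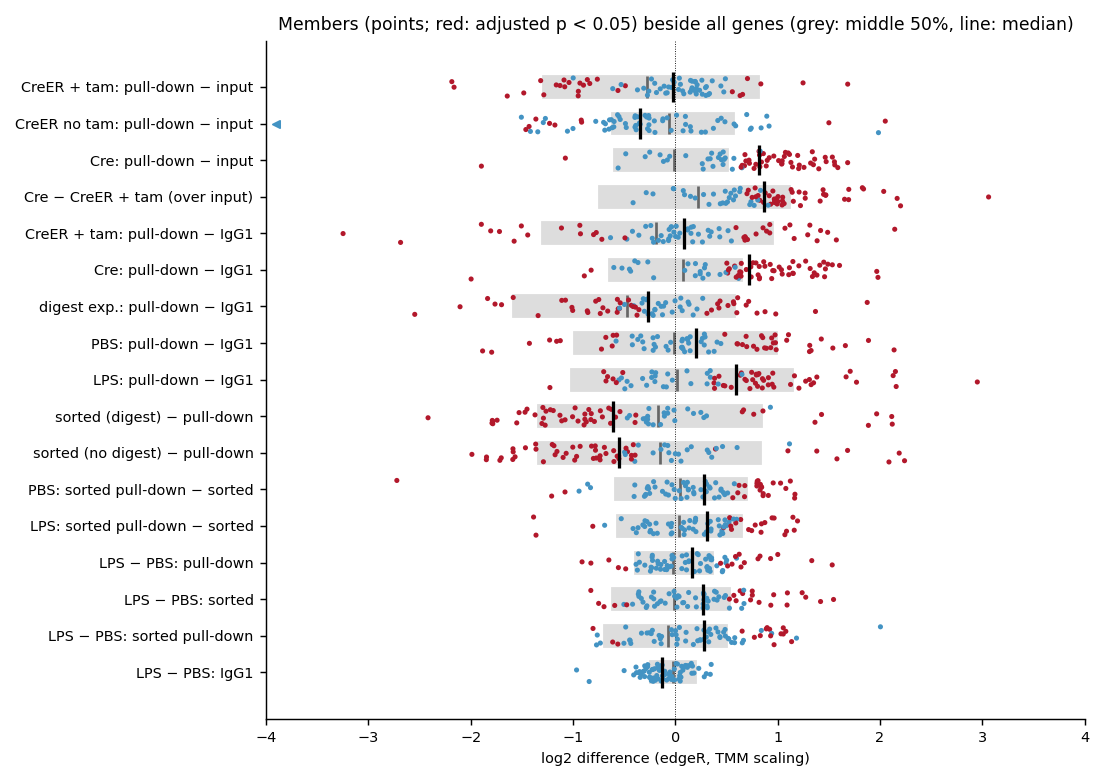
Log2 differences (x axis; edgeR, TMM scaling) of the 74 tested members in 17 comparisons (y axis), red where the adjusted p is under 0.05, with the member median as a black line and the middle 50% of all genes as a grey bar. An arrow marks Mrps33, which had no read in the pull-down without tamoxifen. The constitutive Cre rows have member medians of 0.82 and 0.71.

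Pull-down against IgG1 was measured in tamoxifen-treated inducible mice of all 3 experiments. In the digest experiment 17 members rose (26.7% of 11529 genes) and 29 fell (47.8%), with a median of -0.27 against -0.47 for all genes. With the compared groups alone in the fit, 25 rose and 10 fell, and the all-gene median moved to -0.08. In PBS mice of the LPS experiment 28 rose (33% of 11444 genes) and 11 fell (32%), with medians of 0.20 and -0.02. In LPS mice 43 rose (37.6%) and 7 fell (35.3%), with medians of 0.59 and 0.02. These 2 splits turned with the scaling: DESeq2-type size factors gave 12 higher and 29 lower in PBS mice and 14 and 25 in LPS mice, with all-gene medians of -0.53 and -0.64. Relative to all genes the members stood at 0.21 in PBS and 0.57 in LPS mice under the main scaling and at 0.21 and 0.57 under the other.

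The order of the members was similar across experiments that share no library. The log2 differences from IgG1 in the driver and digest experiments correlated over 74 members, at Pearson r = 0.78 and Spearman rho = 0.75. Measured from the all-gene median of each experiment, 60 had the same sign. The correlation of the driver experiment with PBS mice of the LPS experiment was r = 0.68 over 73 members. These are descriptions across genes, which share protocol and length or composition in each experiment and are not independent replicates.

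Of 73 members tested in all 3 experiments, 11 (15.1%) were higher than IgG1 in each, where 23% of 10535 genes were: Mrpl2, Mrpl14, Mrpl20, Mrpl24, Mrpl30, Mrpl34, Mrpl36, Mrpl43, Mrpl44, Mrpl52 and Mrps16. Another 8 (11.0%) were lower in each, where 25.4% of all genes were, namely Mrpl1, Mrpl9, Mrpl35, Mrpl39, Mrpl47, Mrpl50, Mrps27 and Mrps30. Calls in opposite directions were found for 4, and the share of all genes with such calls was not counted. These lists rest on the main fit alone, and were not made again under the alternatives that moved the splits above. Mrpl52 led in the digest experiment too, at 348, 445 and 377 CPM against 161, 103, 81.3 and 75.2 CPM, and its groups did not overlap (1.87 ± 0.17, edgeR adjusted p = 6.25e-12). In PBS mice it was at 289, 292 and 285 CPM against 84.4, 153 and 89.3 CPM. Mrpl39, a large-subunit protein, had 2.27, 3.73 and 3.19 CPM in the digest pull-down, from 3 to 6 reads, and 10.9, 20.9, 20.5 and 23.6 CPM in IgG1 (-2.55 ± 0.40, adjusted p = 4.09e-07). Mrpl50 had 4.55, 3.11 and 5.74 CPM against 14.8, 22.6, 17 and 25.1 CPM (-2.10 ± 0.35, adjusted p = 1.16e-06). All pull-down libraries of both lay below all IgG1 libraries. Mrpl1, Mrpl39, Mrpl47 and Mrpl50 had at most 14 reads in each of these pull-down libraries, so the sizes of their differences are imprecise.

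**Figure D4:**
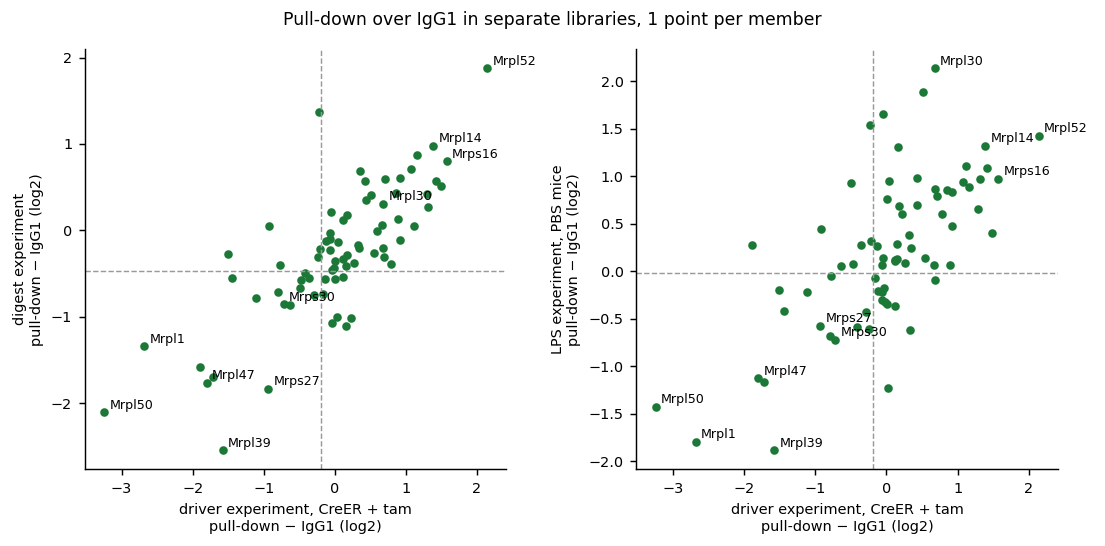
Pull-down minus IgG1 (log2 difference) of each member in the driver experiment (x axis) against the digest experiment (left, y axis) and PBS mice of the LPS experiment (right, y axis), with dashed lines at the all-gene medians. Mrpl52 lies at the upper right and Mrpl50 and Mrpl1 at the lower left of both panels, and r is 0.78 and 0.68.

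The members were lower in sorted cells than in the pull-down from homogenate. In the digest experiment 10 rose (31.6% of all genes) and 41 fell (41.1%) in cells sorted with digest, with medians of -0.61 for members and -0.18 for all genes. Without the digest 8 rose (31.9%) and 44 fell (40.9%), with medians of -0.55 and -0.15. The 2 comparisons share the pull-down libraries. Members with an Mrpl symbol had a median of -0.79 and those with an Mrps symbol of -0.29 with digest, and -0.69 and -0.39 without. That difference between symbols was not tested. Sorted cells with and without digest differed in 0 members by edgeR, where 0.139% of all genes did, and in 0 by DESeq2. At an unadjusted edgeR p under 0.05 there were 3 members, and the share of all genes at that threshold was not counted.

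Mrpl20, of the large subunit, stood at 259, 291 and 263 CPM in the pull-down, 61.1, 46.6, 46.9 and 49.6 CPM in cells sorted with digest and 60.5, 64.6, 76.5 and 70.9 CPM without. Neither sorted group reached the pull-down, and the differences were -2.42 ± 0.17 and -1.99 ± 0.17 (edgeR adjusted p = 5.45e-15 and 3.74e-13). Mrpl30 was at 196, 221 and 213 CPM against 56.8, 58.8, 76.4 and 49.6 CPM with digest. Mrps12 was at 169 CPM ± 23.1 (SD, n = 3) in the pull-down and 50.6 ± 4.60 (n = 4) in cells sorted with digest. Mrpl12 fell by 1.22 ± 0.14 with and by 0.93 ± 0.14 without digest (adjusted p = 1.04e-09 and 2.13e-07).

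Higher in both sorted groups were 7 members (9.46%), where 29.7% of all genes were, namely Mrpl1, Mrpl35, Mrpl39, Mrpl47, Mrpl50, Mrps2 and Mrps30. Mrpl50 was at 26.8, 14.2, 14.8 and 24.8 CPM with digest and 17.1, 23.3, 22.4 and 19.4 CPM without, all above the 3.11 to 5.74 CPM of the pull-down. All but Mrps2 of these 7 also belong to the 8 members lower than IgG1 in every experiment, and the comparisons share the pull-down libraries. Respiratory chain subunits were lower in sorted cells as well, with 65 of 73 lower and 2 higher with digest (median -1.51). Of 18 mitochondrial aminoacyl-tRNA synthetases, 10 were higher and 1 lower (0.71), and of 7 genes of mitochondrial DNA maintenance and transcription 5 were higher and 0 lower.

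Markers of other cells moved with this comparison. The 10 neuronal markers summed to 1065 to 1161 CPM in the pull-down and 2.86 to 12.7 CPM in sorted cells, where 5 to 9 of the 10 were at 0. A set of 6 early response genes, among those that cell handling can induce, summed to 503 to 563 CPM in the pull-down and 10259 to 17339 CPM in sorted cells. Markers of border macrophages, which also use Cx3cr1, summed to 703 to 797 CPM in the pull-down and 2.60 to 20.3 CPM in sorted cells, and all 6 were lower with digest. The 7 astrocyte markers were at 813 to 835 and 155 to 254 CPM, and the 7 oligodendrocyte markers at 1564 to 1739 and 111 to 160 CPM. The 10 microglial markers were at 41815 to 47124 CPM and 47090 to 51285 CPM. The part of any of these in the members' difference was not tested.

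Pull-down from sorted cells held slightly more of the members than the sorted cells themselves. In PBS mice 22 rose (16.6% of all genes) and 3 fell (15.2%), with medians of 0.28 and 0.04. In LPS mice 19 rose (15.2%) and 3 fell (16.7%), with medians of 0.31 and 0.03. With total counts 9 rose and 6 fell in PBS mice and 11 and 5 in LPS mice. Without sorted replicate 2, 16 members passed in PBS mice, and without sorted pull-down replicate 4, 12 passed in LPS mice. Across the 74 members the differences in PBS and in LPS mice, from separate libraries, correlated at r = 0.66.

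In both treatments 13 members were higher in the pull-down from sorted cells, where 9.79% of all genes were, and 1 was lower, where 10.7% were. Among the 13 were Mrpl12, Mrpl17, Mrpl34, Mrpl43, Mrps12, Mrps28 and Mrps34. In LPS mice the call for Mrpl12 was lost without pull-down replicate 4 (0.44, edgeR adjusted p = 0.0974). That for Mrps12 was lost there with total counts (0.41, adjusted p = 0.124) and without sorted or pull-down replicate 4, and in PBS mice without pull-down replicate 3 (0.66, adjusted p = 0.0515). Mrps34, of the small subunit, was at 115, 77.7 and 135 CPM against 47.7, 42.9 and 61.7 CPM in sorted cells of PBS mice, without overlap (1.16 ± 0.24, edgeR adjusted p = 1.16e-04). In LPS mice it was at 156, 82.3, 86.1 and 147 CPM against 43, 53.3, 78.9 and 61.8 CPM, again without overlap. Mrpl43 was at 225, 226 and 238 CPM against 121, 119 and 142 CPM in PBS mice. Mrps18c, 1 of 3 relatives of a bacterial small-subunit protein, was called lower in both. The call in LPS mice was lost in DESeq2 (adjusted p = 0.0582), with no filter (0.0799) and without each of 5 single libraries, and that in PBS mice without pull-down replicate 1 (0.0783). In PBS mice it had 0, 0 and 2 reads in the pull-down from sorted cells and 26 reads over the sorted libraries, a ratio of 0.141 (95% exact interval 0.0163 to 0.565, counting error only). Its relatives Mrps18a and Mrps18b did not pass in either treatment. Neuronal markers summed to 285 to 509 CPM in this pull-down and 66 to 123 CPM in sorted cells of PBS mice, and microglial markers to 84279 to 89690 and 43948 to 45466 CPM. Their part in the result was not tested.

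After LPS a minority of members changed, more of them upward. In the pull-down 13 rose (15.5% of all genes) and 5 fell (11%), with medians of 0.16 for members and -0.03 for all genes. In sorted cells 17 rose (17%) and 5 fell (17.6%), with medians of 0.27 and -0.01. In the pull-down from sorted cells 13 rose (12.7%) and 3 fell (12.9%), with medians of 0.28 and -0.07. Over both directions together, the shares of members called were close to those of all genes. By direction, the share of members was above that of all genes for rises and below it for falls, under the main scaling. With total counts the split was 9 and 9 in the pull-down and 14 and 7 in sorted cells, and with DESeq2-type size factors 10 and 8 in the pull-down. In IgG1 libraries 0 members passed by edgeR, where 1.15% of all genes did, and 0 by DESeq2. At an unadjusted edgeR p under 0.05 there were 2 members, and the share of all genes at that threshold was not counted.

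Across the 3 preparations 26 members rose in at least 1, where 23% of all genes did, and 11 fell in at least 1, where 23.3% did. Called in opposite directions were 0 members, and such calls were not counted over all genes. Mrpl12, Mrpl17, Mrpl20 and Mrps2 rose in all 3 (8.43% of all genes), and Mrpl43 fell in all 3 (5.79%). Mrps2 was at 21.7, 22.4, 29.2 and 31.3 CPM in the pull-down of LPS mice against 11.7, 8.54 and 9.94 CPM in PBS mice. In sorted cells it was at 66.5, 48.3, 71.5 and 68.9 CPM against 25.7, 23.5 and 30.8 CPM. Neither pair of groups overlapped, and the differences were 1.33 ± 0.30 and 1.27 ± 0.27 (edgeR adjusted p = 3.55e-04 and 1.16e-04). Its model overlaps that of 1700007K13Rik.

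Mrpl12 was at 219, 285, 254 and 266 CPM in the pull-down of LPS mice against 150, 129 and 153 CPM, and at 123, 107, 134 and 133 against 50.4, 55.4 and 53.3 CPM in sorted cells. In the pull-down from sorted cells it was at 135, 206, 191 and 247 CPM against 108, 74 and 116 CPM. All LPS libraries lay above all PBS libraries in each preparation, by 0.83 ± 0.16, 1.24 ± 0.20 and 0.92 ± 0.21 (edgeR adjusted p = 4.01e-05, 7.09e-07 and 3.29e-04). In IgG1 it did not pass, at 129, 127, 117 and 152 CPM against 171, 186 and 132 CPM. Mrpl17 was at 237, 303, 264 and 259 CPM against 143, 127 and 128 CPM in the pull-down (1.00 ± 0.18, adjusted p = 6.75e-06). The promoter windows of Mrpl12 and Mrpl17, printed above, hold a match to the NRF1 core, those of Mrpl20 and Mrps2 hold none of ETS, NRF1 or YY1, and that of Mrpl14, which fell in sorted cells (a call lost without PBS replicate 2), holds NRF1.

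Mrps18b, at 20.4, 25.5, 21.7 and 21.6 CPM in the pull-down of LPS mice and 9.5, 8.54 and 4.59 CPM in PBS mice, rose by 1.53 ± 0.34 (edgeR adjusted p = 2.53e-04). It rose by 1.42 in sorted cells (adjusted p = 0.00222), a call lost without PBS replicate 1 (0.96, adjusted p = 0.0726). In the pull-down from sorted cells it did not pass, at 1.18 (adjusted p = 0.0520). Mrps18a rose in the pull-down from sorted cells by 0.65 (adjusted p = 0.0217), a call lost among others without PBS replicate 2 there (0.48, adjusted p = 0.132), and Mrps18c passed in none of the 3. Mrpl50 rose in sorted cells, at 41.1, 51.7, 62 and 48.7 CPM against 13.8, 16.6 and 23.8 CPM (1.54 ± 0.28, adjusted p = 8.31e-06), and did not pass in either pull-down.

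Of the members that fell, Mrpl43 was at 128, 126, 103 and 136 CPM in the pull-down of LPS mice against 164, 167 and 186 CPM in PBS mice. Its differences in the 3 preparations were -0.49, -0.59 and -0.61 (edgeR adjusted p = 0.0125, 0.00581 and 0.00792), the sorted one not passing without PBS replicate 3 (-0.49, adjusted p = 0.0547). LPS and PBS libraries did not overlap in any of these preparations. Its model overlaps that of Twnk, the mitochondrial DNA helicase gene. Mrpl42 fell in the pull-down from 43.1 CPM ± 9.15 (SD, n = 3) to 23.1 ± 2.05 (n = 4).

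The LPS response itself was compared between preparations. Between pull-down from sorted cells and sorted cells, 0 members differed by edgeR, where 0% of all genes did, and 0 by DESeq2. At an unadjusted edgeR p under 0.05 there were 10 members, and the share of all genes at that threshold was not counted. Between pull-down from homogenate and sorted cells 1 member differed, Mrpl13, where 3.21% of all genes did. It was at 38.2, 31.1, 33.9 and 60.5 CPM after LPS against 82.5, 71 and 57.3 CPM in the pull-down, and at 54.7, 38.3, 40 and 51.1 against 43.1, 30.5 and 37.8 CPM in sorted cells. The libraries overlapped in both, and the difference between responses was -1.10 ± 0.32 (edgeR adjusted p = 0.0343). Leaving out single libraries took the adjusted p to as much as 0.108, without PBS pull-down replicate 1. Over the 74 members the LPS differences in pull-down and sorted cells correlated at r = 0.69. Measured from the all-gene medians, 59 had the same sign. The libraries differ, but sorting and pull-down used the same animals, so the 2 sets of differences are not independent.

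**Figure D5:**
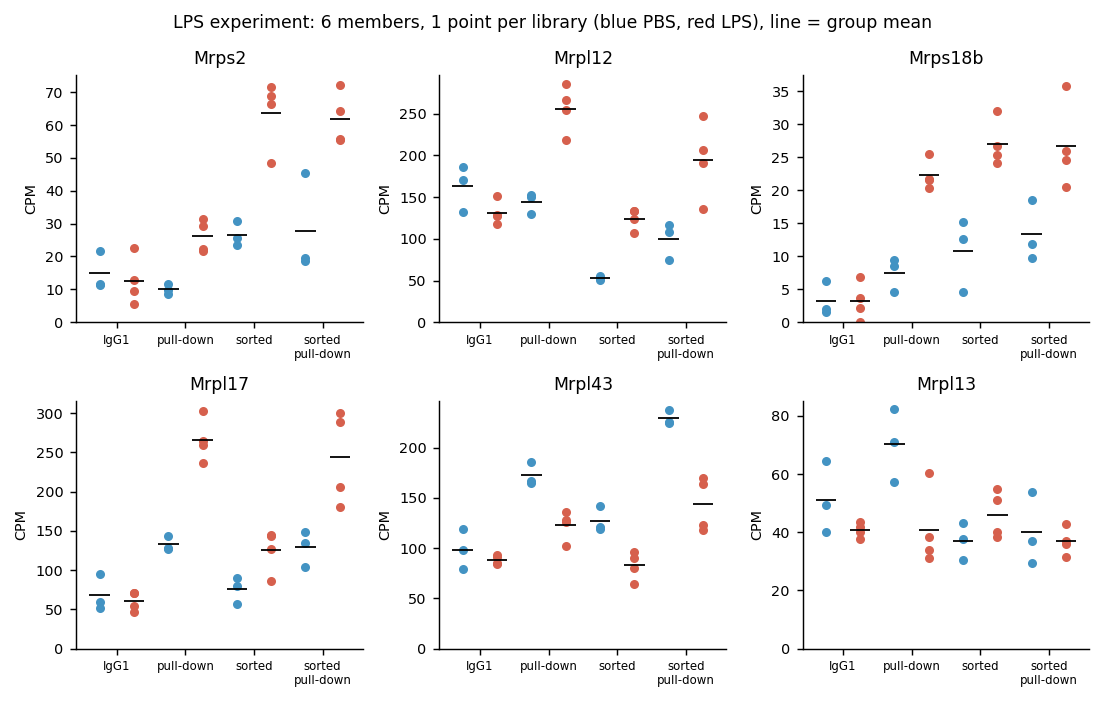
Scaled CPM (y axis) of 6 members in the 4 preparations of the LPS experiment (x axis), PBS mice in blue and LPS mice in red, 1 point per library, line at the group mean. Mrps2, Mrpl12 and Mrpl17 are higher and Mrpl43 lower after LPS in the 3 microglial preparations, and Mrpl13 is at 31.1 to 60.5 CPM after LPS and 57.3 to 82.5 CPM after PBS in the pull-down from homogenate.

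Of 76 cytosolic ribosomal protein genes, 14 were higher in each of the 3 microglial preparations and 1, 0 and 0 lower, and the others did not pass. These counts of higher genes stand beside 15.5%, 17% and 12.7% of all genes. Of 73 respiratory chain subunits, 1 was higher and 3 lower in the pull-down and 2 and 6 in sorted cells. Of 21 mitochondrial ribosome assembly factors 4 rose and 1 fell in the pull-down and 5 and 5 in sorted cells. Markers of neutrophils and monocytes, cells that LPS can draw into tissue, summed to 13.7 to 33.3 CPM in sorted cells of LPS mice and 9.69 to 18.2 CPM in PBS mice, with 2 or 3 of 6 at 0. Only 3 of these markers were tested. After LPS 1 of them was higher and 0 lower in each microglial preparation. Their median log2 differences were 1.36 in the pull-down, 2.65 in sorted cells and 1.61 in the pull-down from sorted cells. Neuronal markers in the pull-down were at 1435 to 1827 and 1516 to 1715 CPM. The 10 microglial markers themselves were lower after LPS, at 36936 to 39475 CPM against 43948 to 45466 CPM in sorted cells, with 5 lower and 1 higher, and at 62248 to 82869 CPM against 84279 to 89690 CPM in the pull-down from sorted cells, with 7 lower. In the pull-down from homogenate 5 were lower and 1 higher. Of the 6 early response genes 4 were higher in each preparation, and none was lower. Their part in the response was not tested.

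Most members, but not all, followed the member median across the 21 groups. Over 73 members tested everywhere, the Pearson correlation of a member's group means with the member median was above 0 for most. In the middle of the ranking stood Mrps35, at 0.63. The correlation was highest for Mrpl49 and Mrps23, at 0.92, and lowest for Mrpl1 (-0.43), Mrps30 (-0.39) and Mrpl35 (-0.30). The 3 with the lowest values are among the 8 members lower than IgG1 in all 3 experiments. Both rest on the same pull-down and IgG1 libraries, so that overlap is not a separate result. Groups here share experiments and libraries, so this is a description.

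The members lie on 17 chromosomes. Gene models of 25 of the 78 overlap another gene in RefSeq, where counts may include reads of the neighbour. A neighbouring gene starts in the opposite direction within 1000 bases of 26 of 69 members (37.7%), against 12.3% of protein-coding genes. RefSeq also lists 6 pseudogenes named after members, and reads from such copies could not be told apart here.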

How the data were processed

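The deposited values were raw counts of reads per gene over exons, made by the authors, in 1 table per experiment, and every library had its own column. The submitters' processing notes name bcl2fastq, HISAT 0.1.5, HOMER and the build mm9, without roles. The annotation, strand setting, duplicate handling and gene lengths are not given in the sources used here, so levels are not compared between genes and the member with most reads per length could not be named.

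The members, lists and comparisons were chosen with earlier results of these data known. Each experiment was fitted over all genes and groups with edgeR 4.0.16 in R 4.3.3: filterByExpr with a minimum count of 10, TMM scaling, a quasi-likelihood F test, Benjamini-Hochberg adjustment over all genes tested, and calls at 0.05. CPM are TMM-scaled, values after ± are SE for log2 differences and SD for CPM. The fit was tested on simulated data. Named members were, per comparison, the 4 strongest calls upward and the 4 strongest downward at 10 CPM or more in the higher group, plus Mrps18a, Mrps18b, Mrps18c, Mrpl12 and Mrps12, and the text leaves some out. Members lower or higher in several comparisons, and Mrpl34, were named after their values were seen. Lists of calls shared by several comparisons were made with the main fit alone. Alternatives were other scalings, no filter, DESeq2 1.42.0, the compared groups alone, a replicate block, and leaving out each library. Sorting and pull-down used the same animal, per the series design, and the titles of the LPS experiment number libraries alike across preparations, so same numbers there may mark a mouse, which is not stated. Deviations from group means correlated at 0.040 to 0.20 in its same-numbered pull-down and sorted libraries, at 0.013 to 0.17 in sorted cells and their pull-down, and with mixed signs against IgG1. The replicate block was kept as an alternative. Columns of samples not mapped to a library numbered 0. The text's intervals and floors cover counting error only.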

Additional observations from a re-analysis of the deposited data

Results flagged for a closer look

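Pull-down over input differed between constitutive and inducible drivers, by a test of the difference itself, in 44 of 74 members, all higher in constitutive Cre mice. The response of Mrpl13 to LPS differed between pull-down and sorted cells by -1.10 on the log2 scale, a call that did not hold without 9 of the 14 libraries left out in turn. Of 54 values in groups of 4 libraries tested for a library far from the rest, 0 were.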

How the results depend on the processing

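Most values held: of 2677 alternatives for single members, 2515 kept their side of the threshold without a called change of direction. In 49 of these the sign changed with neither value called. Of the rest, 141 lost a call, 20 gained one and 1 turned to a call in the opposite direction. That 1 was Mrps12 against IgG1 in inducible mice with tamoxifen, at -0.51 with total counts. Of 283 alternative counts of called members, 263 were within 1.5 times, and of 283 medians 262 moved by less than the spread. The following did not, and where no value shows it the cause was not tested.

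With the compared groups alone in the fit, the member median minus the all-gene median went from 0.27 to 0.13 against IgG1 in tamoxifen mice, from -0.43 to -0.59 and from -0.40 to -0.53 in cells sorted with and without digest against pull-down, from 0.21 to 0.14 in PBS pull-down against IgG1, and from 0.28 to 0.38 in LPS mice for pull-down from sorted cells, while the count without tamoxifen against input went from 9 to 14. With no filter it went from -0.29 to -0.37 and from -0.09 to -0.22 without tamoxifen (input, IgG1), from 0.20 to 0.41 in the digest pull-down against IgG1, from 0.57 to 0.70 in the LPS pull-down against IgG1, and from 0.28 to 0.42 for LPS pull-down from sorted cells, and the 1 call for the LPS response between pull-down and sorted cells became 0. With total counts, 15 members passed in place of 25 for PBS pull-down from sorted cells.

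Leaving out 1 library at a time gave 0.74 to 0.86 for constitutive Cre pull-down against input and 0.59 to 0.73 against IgG1, and 24 to 44 members for the driver difference. Without tamoxifen it gave 4 to 6 members and -0.33 to -0.20 against input, and 1 to 5 members and -0.27 to -0.072 against IgG1. In the LPS experiment it gave 0.23 to 0.29 for PBS and 0.45 to 0.56 for LPS pull-down against IgG1, 16 to 22 and 12 to 22 members for pull-down from sorted cells in PBS and LPS mice, and 0 to 1 for the LPS response difference between pull-down and sorted cells. Where 1 library remained in a group it was assumed to vary like the other groups.

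With a replicate block, 48 calls became 49 for constitutive Cre pull-down against input and 44 became 46 for the driver difference, and no count moved by over 1.5 times. It ended the calls of Mrpl27 in sorted cells and of Mrps11 and Mrps15 in the pull-down from sorted cells, all lower after LPS, and gave a call to Mrps18c in cells sorted without digest. Depth limits members with few reads, above all in pull-downs without tamoxifen.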
